A study of Mus musculus with 3 samples.

Results

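Regions of acetylated histone H3 lysine 27 (H3K27ac) that were present in both conditions but at least 2 times wider after caerulein are described here. A matched pair was 1 post-caerulein peak and 1 untreated peak on chromosomes 1 to 19 that overlapped each other by at least 1 bp and overlapped no other peak of the other list. Of 26529 such pairs, 756 had a post-caerulein peak at least 2 times as wide as the untreated peak, and these are called widened regions. That is 2.85% of the pairs. The pairs with an untreated peak at least 2 times as wide as the post-caerulein peak numbered 541 (2.04%) and are called narrowed regions. The remaining 25232 pairs lay within the 2-fold limit. The regions were chosen by the 2 widths, so the widths and everything measured in the same 2 lists are given as a description without a test.

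The H3K27ac libraries came from pancreatic spheroids, which are three-dimensional cultures of pancreatic epithelial cells, of wild-type C57BL/6J mice. One library was made from spheroids of mice that had earlier been given caerulein, an analogue of cholecystokinin used to provoke pancreatitis, and one from spheroids of untreated mice. The medium contained epidermal growth factor, hydrocortisone and cholera toxin, and the sources used here do not give the number of mice or cultures behind a library. With 1 library per condition no difference below has a replicate check. The peak lists hold no read counts, so sequencing depth is unknown, and intervals on shares are exact (Clopper-Pearson) 95% intervals that cover counting error over regions only. An input library of untreated spheroids was not analysed here. The labelled cell type was checked at gene ends within 1 kb of a peak. An end was marked for 6 of 6 ductal markers in each list and for 1 of 6 acinar markers in each list. For markers of other cell types the post-caerulein and the untreated list marked 3 and 2 of 20 endocrine, 1 and 1 of 18 mesenchymal, 5 and 5 of 18 immune and 3 and 3 of 14 endothelial genes.

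H3K27ac is laid down by the acetyltransferases p300 and CBP at active promoters and enhancers. The mark sits on nucleosomes around the sites where transcription factors bind, and wide stretches of it are known from strongly active regulatory domains. In peak lists without signal values, a longer acetylated stretch and a stronger signal over the same stretch cannot be told apart.

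Where a gene's start site lay within a widened region, its promoter letters could be read from RefSeq's table for GRCm38.p6, which gives 250 bases before to 50 bases after each listed start and held 17492 of 21887 protein-coding genes. The first 3 sequences show start sites that lay in the gained part, covered after caerulein and not by the untreated peak. The other 2 show start sites that lay under both peaks. All are written 5′ to 3′, and capitals mark matches on either strand to 6 motifs. These are TGANTCA (known from AP-1), the TATA box as TATAAA, the CCAAT box, the Sp1-type motif GGGCGG, the TEAD motif as GGAATG, and TGTTTAC as bound by forkhead factors.
Lrg1, chr17:56121897-56122196, minus strand: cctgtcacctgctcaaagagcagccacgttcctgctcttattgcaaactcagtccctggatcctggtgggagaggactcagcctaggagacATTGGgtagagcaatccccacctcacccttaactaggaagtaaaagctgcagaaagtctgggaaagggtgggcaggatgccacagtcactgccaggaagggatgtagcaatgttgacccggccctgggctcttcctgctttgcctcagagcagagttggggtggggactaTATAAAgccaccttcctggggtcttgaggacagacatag
Bco1, chr8:117095615-117095914, plus strand: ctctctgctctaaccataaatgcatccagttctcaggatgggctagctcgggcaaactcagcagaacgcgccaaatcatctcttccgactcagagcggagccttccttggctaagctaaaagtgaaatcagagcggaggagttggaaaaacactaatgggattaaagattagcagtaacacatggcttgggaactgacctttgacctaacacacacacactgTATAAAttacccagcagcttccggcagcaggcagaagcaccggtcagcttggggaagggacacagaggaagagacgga
Slc2a2, chr3:28697653-28697952, plus strand: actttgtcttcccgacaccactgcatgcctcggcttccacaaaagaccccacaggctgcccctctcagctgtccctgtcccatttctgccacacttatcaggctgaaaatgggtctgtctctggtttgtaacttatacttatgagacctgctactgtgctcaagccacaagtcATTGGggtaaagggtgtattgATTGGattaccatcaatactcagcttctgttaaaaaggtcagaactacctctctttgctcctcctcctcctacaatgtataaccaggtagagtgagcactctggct
Rab11fip5, chr6:85374585-85374884, minus strand: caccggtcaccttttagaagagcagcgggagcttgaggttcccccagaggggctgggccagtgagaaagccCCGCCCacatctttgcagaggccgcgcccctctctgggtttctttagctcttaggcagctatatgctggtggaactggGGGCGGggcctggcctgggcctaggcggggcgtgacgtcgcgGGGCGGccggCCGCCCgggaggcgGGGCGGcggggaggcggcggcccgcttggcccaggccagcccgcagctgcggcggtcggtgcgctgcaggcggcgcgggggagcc
Arl4d, chr11:101665291-101665590, plus strand: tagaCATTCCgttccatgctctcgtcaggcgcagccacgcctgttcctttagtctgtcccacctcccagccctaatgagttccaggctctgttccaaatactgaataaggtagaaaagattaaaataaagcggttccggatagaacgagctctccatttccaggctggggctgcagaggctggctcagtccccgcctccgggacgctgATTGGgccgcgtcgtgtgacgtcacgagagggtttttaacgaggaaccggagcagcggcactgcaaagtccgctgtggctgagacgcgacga

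These 5 promoters differ in their content of CpG, the dinucleotide that is frequent in the promoters of broadly expressed genes. Lrg1, which encodes a secreted acute-phase glycoprotein, and Slc2a2, which encodes the glucose transporter GLUT2, had 2 CpG each in 300 bases. Bco1, for the enzyme that cleaves beta-carotene, had 9. Rab11fip5, for an effector of the recycling-endosome GTPase Rab11, had 29, and Arl4d, for a small GTPase, had 22. Promoters not printed can differ: the 2 start sites of Plin5, in the same gained part as that of Lrg1, had 16 CpG each. The contrast among the 5 thus depends on which were printed, and CpG was counted over all listed start sites. The gained parts of widened regions held 21 start sites of 18 genes in 17 regions, with a median of 4 CpG (lowest 0, highest 36). Start sites under both peaks of a widened region numbered 44, with a median of 25 CpG (1 to 47). The 9365 start sites under both peaks of a pair within the 2-fold limit had a median of 22. Counted per gene, 5 of 18 genes (27.8%) in gained parts had at least 10 CpG, against 26 of 38 (68.4%) under both peaks of widened regions. At the edges of pairs within the 2-fold limit, the 51 start sites covered by the post-caerulein peak alone had a median of 7 and the 41 covered by the untreated peak alone had a median of 6. The 13 start sites that only the untreated peak of a narrowed region covered had a median of 15 CpG (4 to 27), and 7 of their 11 genes (63.6%) had at least 10. Over all 21263 protein-coding promoters in the table the median was 13 CpG, and 56.8% had at least 10. Median CpG at edge start sites was thus below that of all promoters at widened regions and at pairs within the limit, and not at narrowed regions. At least 10 CpG were found in 28.6% (11.3 to 52.2) of start sites in gained parts. The share was 47.1% (32.9 to 61.5) for the post-caerulein peak alone within the limit, an interval that includes the share over all promoters.

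**Figure D1:**
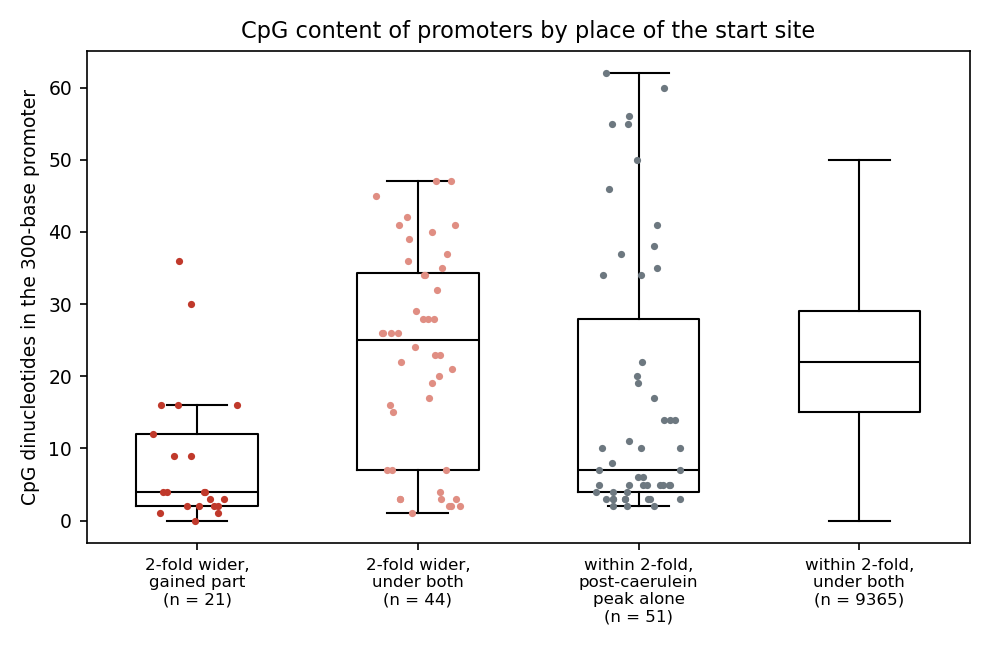
CpG dinucleotides (vertical axis) in the 300-base promoters of the RefSeq table, by the place of the start site; boxes show quartiles and the median, whiskers reach the last value within 1.5 times the box height, and points are single start sites (not drawn for the largest set). Start sites in the gained parts of widened regions have a median of 4 CpG, those under both peaks of widened regions 25 and those under both peaks of other pairs 22.

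The 6 motifs were counted in the gained promoters. TGANTCA was in 1 of 21 (4.76%, 0.12 to 23.8), against 6.99% of all 21263 protein-coding promoters in the table, and TGTTTAC was in 0 of 21 (up to 16.1%) against 3.01%. TATAAA was in 4 of 21 (interval 5.45 to 41.9%), against 12.6% of all promoters. GGGCGG was in 6 of 21 (28.6%, 11.3 to 52.2), against 46.2%. CCAAT was in 10 of 21 (47.6%, 25.7 to 70.2) and GGAATG in 1 of 21, against 38.2% and 13.6%. The intervals include the share over all promoters for each of these 6 motifs, and none of the motifs contains another. Several start sites belong to 1 gene (Nfix has 3 and Plin5 has 2 in this set), so the 21 promoters are not independent.

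The widened regions had narrow untreated peaks. Their post-caerulein peaks were 1552 to 14619 bp wide with a median of 3974 bp, and their untreated peaks were 698 to 6525 bp wide with a median of 1545 bp. Over all matched pairs the median widths were 2717 bp after caerulein and 2611 bp in untreated spheroids, with a median ratio of 1.02. The gain in width had a median of 2352 bp (798 to 8775). In sum the 756 regions covered 3.33 Mb after caerulein and 1.31 Mb in untreated spheroids, a difference of 2.01 Mb. The difference over all matched pairs was 2.98 Mb. Most ratios were close to the limit: 455 regions lay between 2 and 2.5, 178 between 2.5 and 3, 85 between 3 and 4, 29 between 4 and 5, and 9 at 5 or more. The regions nearest the limit on the inner side lay by Srrm4 (ratio 2.0004), Aldh8a1 (2.002) and Mgrn1 (2.003). Just outside it were pairs by Il6ra (1.9995), by a predicted gene (1.999) and 102559 bp from any gene end (1.998).

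The excess of widened over narrowed regions depended on the limit. At 1.5-fold there were 2297 against 1495. At 3-fold there were 123 against 127 (0.464% and 0.479% of the pairs), so the numbers were near equal there. Of all pairs, 14763 were wider after caerulein and 11744 were wider in untreated spheroids. Widened regions outnumbered narrowed ones on 16 of 19 autosomes, the exceptions being chromosomes 4, 6 and 7. The share of widened regions was lowest on chromosome 19 (1.96%, 1.15 to 3.12) and highest on chromosome 8 (3.84%, 2.90 to 4.97).

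**Figure D2:**
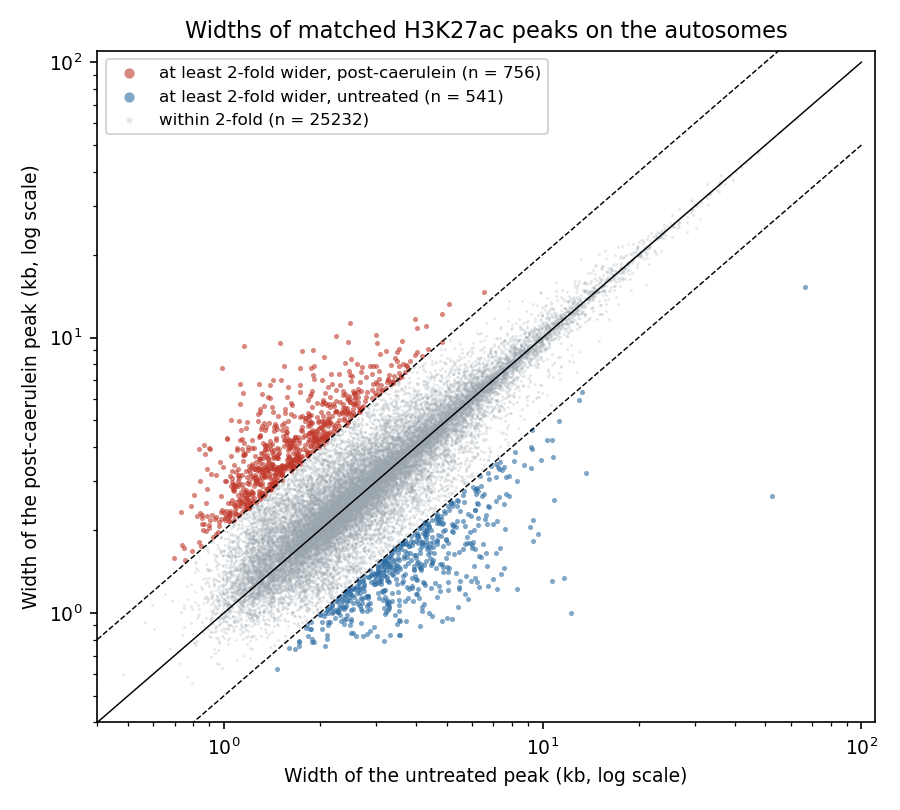
Width of the post-caerulein peak (vertical) against width of the untreated peak (horizontal) for the 26529 matched pairs, both in kb on log scales; the solid line marks equal widths and the dashed lines the 2-fold limits. The 756 widened regions lie above the upper dashed line and mostly at untreated widths under 2041 bp, their upper quartile, and the 541 narrowed regions lie below the lower one.

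Most post-caerulein peaks reached past both edges of the untreated peak, with unequal gains on the 2 sides. The untreated peak lay wholly inside the post-caerulein peak in 715 of 756 regions (94.6%, 92.7 to 96.1), against 34.5% of pairs within the 2-fold limit. The rule chose the regions by width, which by itself favours such nesting. At least 90% of the gained length was on 1 side in 183 regions (24.2%, 21.2 to 27.4), and at least 75% in 404 (53.4%). The larger gain was at the lower coordinate in 375 regions (49.6%, 46.0 to 53.2), so neither side of the chromosome was favoured beyond counting error.

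In the deposited scores, ranked within each list, the untreated peaks of widened regions were weak and the post-caerulein peaks were ordinary. The median percentile was 53.9 for the post-caerulein peaks and 18.5 for the untreated peaks. For pairs within the 2-fold limit it was 58.9 for the post-caerulein peaks and 57.1 for the untreated peaks. The untreated score lay in the lowest 25% of its list in 462 widened regions (61.1%, 57.5 to 64.6), against 16.4% of pairs within the limit. Both peaks reached the median score of their own list in 77 widened regions (10.2%), against 53.4% of pairs within the limit and 8.87% of narrowed regions. Narrowed regions had the reverse pattern, with median percentiles of 16.6 for the post-caerulein peaks and 52.5 for the untreated peaks. Score and width come from the same signal, and the part of signal strength in the widths was not tested.

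Widened regions were mostly distal. The post-caerulein peak was within 1 kb of where a protein-coding gene starts or stops in 99 of 756 regions (13.1%, 10.8 to 15.7), against 36.7% of pairs within the 2-fold limit. For the wider, untreated peak of narrowed regions the share was 12.8% (10.1 to 15.9). For the narrower peaks it was 9.92% at widened and 9.24% at narrowed regions, so widened and narrowed regions differed by less than counting error. Narrow untreated peaks are rarer at gene ends in general, so the shares were also compared within quartiles of untreated width. In the narrowest quartile (481 to 1887 bp), which held 517 widened regions, the share was 10.3% (7.77 to 13.2) for widened regions and 22.0% (20.9 to 23.0) for pairs within the limit. It was 19.4% (13.6 to 26.4) and 38.3% (37.1 to 39.5) in the second quartile, and 14.7% (7.28 to 25.4) and 42.5% (41.3 to 43.8) in the third. In the widest quartile, with 11 widened regions, the shares were 45.5% (16.7 to 76.6) and 43.4% (42.2 to 44.7). The intervals were apart in the 3 lower quartiles and overlapped in the widest. Scores were not held equal in these quartiles. Of the 77 widened regions with both scores at or above their list's median, 23 were within 1 kb of a gene end (29.9%, 20.0 to 41.4). A gene end was more than 50 kb away for 225 widened regions (29.8%, 26.5 to 33.2), against 17.2% of pairs within the limit. Some part of a gene body lay under 467 widened regions (61.8%, 58.2 to 65.3), against 70.2% of pairs within the limit. By quartile of untreated width, from the narrowest to the widest, the shares were 60.9% of widened regions against 61.0% of pairs within the limit, 67.5% against 70.0%, 54.4% (41.9 to 66.5) against 73.9% (72.84 to 75.02), and 63.6% against 75.4%. The intervals were apart in the third quartile alone.

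Widened regions lay near peaks that were found after caerulein alone. A post-caerulein-only peak, one without any overlap in the untreated list, lay within 10 kb of 326 of 756 widened regions (43.1%, 39.6 to 46.7), against 16.9% (16.4 to 17.3) of pairs within the limit. An untreated-only peak lay that near to 20 widened regions (2.65%, 1.62 to 4.06), against 12.8% of pairs within the limit. Narrowed regions had the opposite surroundings, with 4.25% near a post-caerulein-only peak and 39.6% near an untreated-only peak. The matched pairs next to a widened region leaned the same way. Where an adjacent pair lay within 50 kb, it was on average wider after caerulein for 561 of 664 widened regions (84.5%, 81.5 to 87.2), against 56.1% of pairs within the limit and 28.9% of narrowed regions. The median of these neighbours' mean log2 width ratio was 0.27 for widened regions and 0.03 for pairs within the limit. The nearest peak of the same list was 2529 bp away for post-caerulein peaks of widened regions and 7693 bp away for their untreated peaks (medians), against 4972 bp post-caerulein and 5406 bp untreated for pairs within the limit. All these counts come from the same 2 libraries as the widths.

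**Figure D3:**
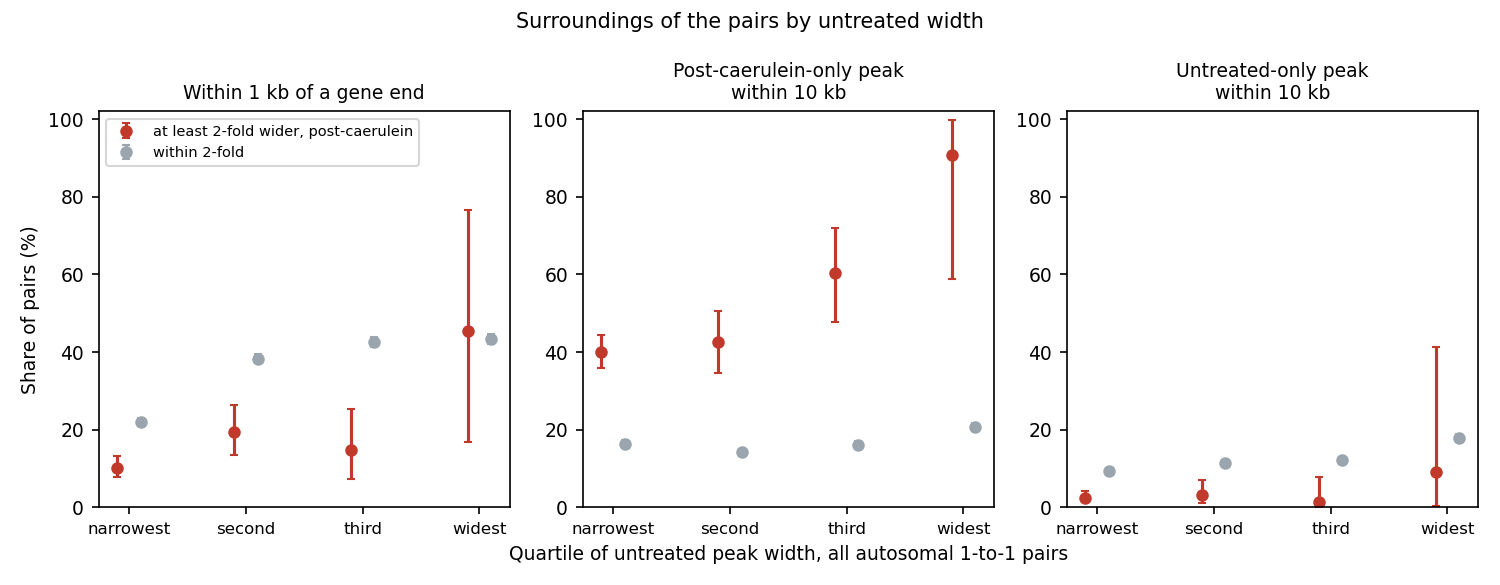
Share of widened regions (red) and of pairs within the 2-fold limit (grey), in percent, by quartile of untreated peak width; bars are exact 95% intervals over regions. The share within 1 kb of a gene end is lower for widened regions in the 3 lower quartiles (10.3% against 22.0% in the narrowest), and the share near a post-caerulein-only peak is higher in all 4 (40.0% against 16.4% in the narrowest).

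The largest gains were of several kb. The largest gain lay within Hs1bp3, for a binding partner of the cortactin-like protein HS1 (chromosome 12, 8330715 to 8341973), where the post-caerulein peak was 11259 bp wide and the untreated peak 2484 bp. Fmnl2, for a formin that elongates actin filaments, had the highest ratio of all: the post-caerulein peak of 9300 bp (chromosome 2, 52922264 to 52931563) stood over an untreated peak of 1159 bp, a ratio of 8.02. The untreated score there was 55.49, near the lowest score in the lists (50), and the nearest end of Fmnl2 was 64547 bp away. At Zc3h12c, for a CCCH zinc finger protein of the Regnase family, the peaks were 14619 bp post-caerulein and 6525 bp untreated, both with a score of 3100, and the start site lay under both. The gain there was 6643 bp on one side and 1451 bp on the other. At a distance of 26592 bp from Zbtb40, a BTB zinc finger gene, the peaks were 13191 bp post-caerulein and 5098 bp untreated, with nearly the whole gain (7833 bp) on 1 side.

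At Erg, an ETS transcription factor gene of endothelium, the post-caerulein peak was 9532 bp and the untreated peak 1502 bp wide (chromosome 16, 95359335 to 95368866), a ratio of 6.35. The scores at Erg were 3100 post-caerulein and 132.46 untreated. The neighbouring widened region on that chromosome, 10997 bp from an end of the potassium channel gene Kcnj15, had peaks of 10244 bp post-caerulein and 2999 bp untreated. The list of endothelial markers had 1 gene with a widened region and 2, Sox17 and Kdr, with a narrowed one, and 3 of its 14 gene ends were marked in each list. Pbx3, a homeodomain cofactor of Hox proteins, had peaks of 11693 bp post-caerulein and 3971 bp untreated, and 7678 of the 7722 bp gained lay on 1 side. Rab11fip5 had peaks of 12178 bp post-caerulein and 4816 bp untreated around the CpG-rich promoter printed above, and the Arl4d promoter lay in a region with peaks of 9039 bp post-caerulein and 1908 bp untreated. Cuedc1, for a ubiquitin-binding CUE-domain protein, had peaks of 9591 bp post-caerulein and 2442 bp untreated.

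**Figure D4:**
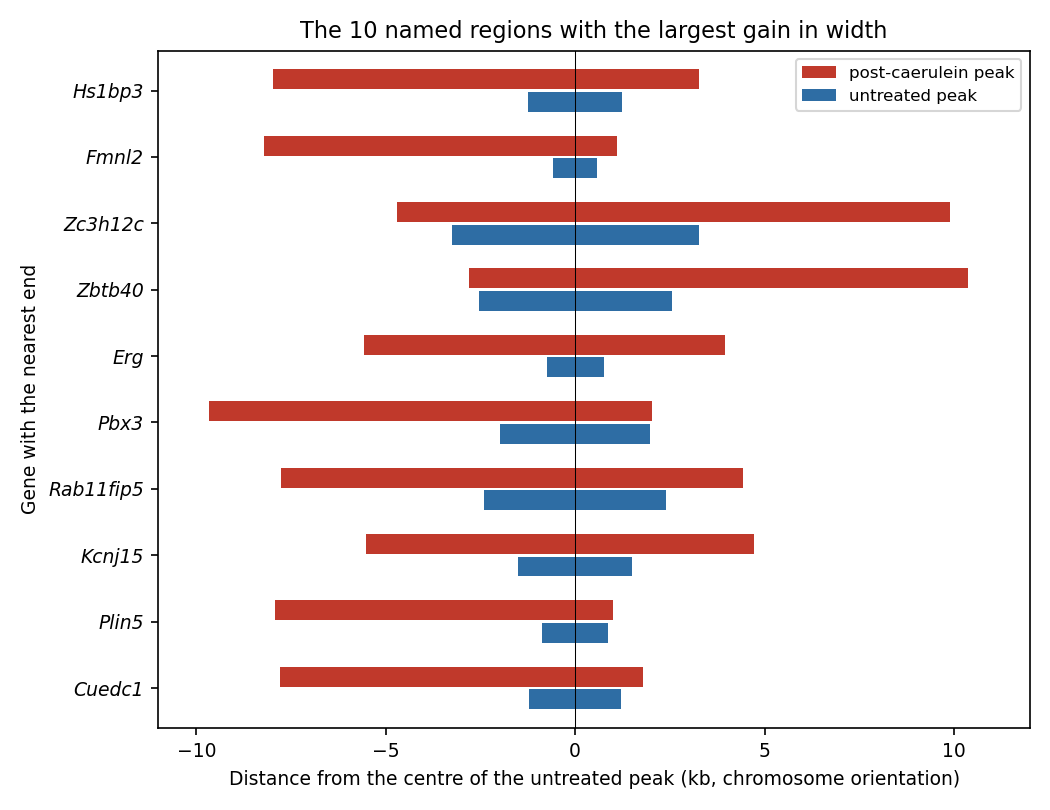
Extent of the post-caerulein peak (red, upper bar) and the untreated peak (blue, lower bar) at the 10 named regions with the largest gain, as distance in kb from the centre of the untreated peak; rows carry the gene with the nearest end. At Pbx3, Zbtb40 and Plin5 nearly all of the gain is on 1 side, whereas at Erg and Kcnj15 it is on both.

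Among regions where both peaks reached the median score of their own list, Plin5, a lipid droplet perilipin gene, had the largest ratio, with peaks of 8925 bp post-caerulein and 1753 bp untreated (chromosome 17, 56116712 to 56125636), a ratio of 5.09 and scores of 3100 post-caerulein and 788.42 untreated. Pbx3, described above, also met this limit with a ratio of 2.94. The Plin5 gain reached ends of Plin5, of Lrg1 and of the semaphorin gene Sema6b. Fabp4, for a fatty acid-binding protein, had peaks of 8048 bp post-caerulein and 2402 bp untreated, and the gained part covered an end of the gene. Akap12, a scaffold of protein kinase A, had peaks of 9581 bp post-caerulein and 3019 bp untreated, and Prkacb, a catalytic subunit of that kinase, had peaks of 7494 bp post-caerulein and 2681 bp untreated. That Prkacb region lay outside gene bodies, 17423 bp from the gene end. Prkacb had a further widened region at a start site, with peaks of 5508 bp post-caerulein and 2541 bp untreated. Gnat3, for the G protein subunit gustducin of taste and tuft cells, had peaks of 6466 bp post-caerulein and 2239 bp untreated. Ssbp2, for a cofactor of LIM-domain complexes, Tbcel, for a tubulin cofactor E-like protein, Lrrk1, a kinase gene, and Poc1a, for a centriole protein, had ratios of 2.83, 2.80, 2.78 and 2.75. Tbcel also had the highest post-caerulein score of all widened regions (3182.47, with 3003.70 for its untreated peak). Next in that order came a region 44296 bp from Ly6l, of the Ly6 surface protein family (peaks of 7253 bp post-caerulein and 3597 bp untreated), and one by Ldlrad3, for an LDL receptor-related protein. The Ldlrad3 region had peaks of 5764 bp post-caerulein and 1956 bp untreated, with scores of 3153.71 post-caerulein and 117.13 untreated.

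The gained part reached a gene end that the untreated peak did not cover in 34 of 756 widened regions (4.50%, 3.13 to 6.23). The corresponding count for narrowed regions, where the untreated peak alone reached an end, was 24 of 541 (4.44%, 2.86 to 6.53). The comparison depended on the window: counting ends within 2.5 kb of a peak as reached, it was 17 of 756 widened regions (2.25%, 1.32 to 3.58) and 35 of 541 narrowed regions (6.47%, 4.55 to 8.88), with intervals apart. After Plin5 and Fabp4, the largest gains of this kind were at Ocstamp, for a protein of osteoclast fusion (7532 bp post-caerulein and 2466 bp untreated), Poc1a (7912 bp post-caerulein and 2881 bp untreated) and Bco1 (7325 bp post-caerulein and 2488 bp untreated). At Tnfrsf1a, the gene of TNF receptor 1, the peaks were 7210 bp post-caerulein and 2797 bp untreated (chromosome 6, 125358258 to 125365467), with a gain of 4328 bp on one side and 85 bp on the other. Slc2a2 had peaks of 6146 bp post-caerulein and 1856 bp untreated (chromosome 3, 28694642 to 28700787), and its listed start site lay 1240 bp outside the untreated peak. Mybphl, a myosin-binding protein gene, had peaks of 7045 bp post-caerulein and 3054 bp untreated, Shisal1 had 5745 bp post-caerulein and 2023 bp untreated, and Ttr, for the thyroid hormone and retinol carrier transthyretin, had 4995 bp post-caerulein and 1281 bp untreated. The start sites in gained parts, listed here after their values were seen, also included those of Cyp1a1, an aryl hydrocarbon receptor target, Ccl17, a chemokine, and Rnf43, an inhibitor of Wnt signalling. Rnf43 had peaks of 3956 bp post-caerulein and 896 bp untreated at that start site, and the untreated score there was 51.58, close to the lowest score in the lists.

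Most widened regions stood alone, yet a widened neighbour was more frequent beside them than beside other pairs. An adjacent pair within 50 kb was itself widened for 108 of 664 widened regions (16.3%, 13.5 to 19.3), against 4.04% (3.79 to 4.31) of pairs within the limit and 0.638% of narrowed regions. Within 50 kb of each other, 149 of 756 (19.7%, 16.9 to 22.7) formed runs of 2 or more: 62 runs of 2, 7 runs of 3 and 1 run of 4. The run of 4 lay at Pde4dip, the myomegalin gene of the centrosome and Golgi (chromosome 3, 97761580 to 97832673), where 4 of the 5 pairs in the span were widened. Its 4 regions had ratios of 2.18 to 3.01 and gained 10983 bp together, and all 7 pairs assigned to the gene were wider after caerulein. When peaks within 1 kb were merged, the Pde4dip region starting at 97830464 stayed matched (ratio of 2.59). Those starting at 97761580, 97800432 and 97806965 did not, so the run of 4 depended on how peaks were split. At Fmnl2, 3 of 3 pairs between 52912820 and 52968894 on chromosome 2 were widened, with a summed gain of 18027 bp. The 2 of them assigned to Fmnl2 did not stay matched after that merging either. At Bco1 and its neighbour Pkd1l2, 3 of 3 pairs were widened as well, with a summed gain of 15155 bp. Prss22 and Prss27, neighbouring serine protease genes, shared a run of 3 in 20.2 kb.

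By the nearest gene end within 100 kb, 636 widened regions were assigned to 568 protein-coding genes, and 120 regions had no gene end in that distance. Of the 568 genes, 509 had 1 widened region, 52 had 2, 5 had 3 and 2 had 4, and 16 had a narrowed region too. Ralgapa2, a GTPase-activating subunit for Ral proteins, had 4, with ratios of 2.17 to 2.77, and 10 of its 11 pairs were wider after caerulein. Zfp462, a zinc finger gene, had 3 widened regions of 3 pairs (ratios of 2.25 to 4.33). Fn1, which encodes fibronectin, a matrix protein of wound repair, had 3 of 4 pairs widened, with ratios of 2.05 to 4.76. The untreated scores at these 3 Fn1 regions were 84.29 to 169.08. The fourth Fn1 pair had a ratio of 1.96. One Fn1 region lay over the gene (3824 bp post-caerulein and 1865 bp untreated) and the others 68879 and 74639 bp from its end. Maf, a basic leucine zipper factor, had 3 of 6 pairs widened, and its other pairs had ratios of 1.56 or more. The untreated scores at the widened Maf regions all lay below the median of their list. Farp1 had 3 of 9, and Cadm1, an adhesion molecule, had 3 of 7, lying 53730 to 96359 bp from its end. Arl4d and Zc3h12c had 2 each.

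Gene lists for this tissue and treatment are given beside the shares over all genes. The lists were chosen with earlier results of these data known, so this is a description and not an independent comparison. Of 11381 protein-coding genes with a matched pair, 4.99% had a widened region and 3.88% a narrowed one. Of the 269 listed genes with a pair, 34 had a widened region, 17 a narrowed one and 0 both. Listed genes had more pairs each (3.23 against 2.14 over all genes), so pairs were counted as well: 41 of 868 pairs at listed genes (4.72%) and 636 of 24364 assigned pairs (2.61%) were widened, and 20 (2.30%) and 476 (1.95%) were narrowed.

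In the acinar list 2 of 10 genes had a widened region and 0 a narrowed one, and 4 of 28 pairs were widened, with a median ratio of 1.18 over the 28 against 1.02 over all assigned pairs. Nr5a2, a nuclear receptor of acinar cells, had regions of 3951 bp post-caerulein and 904 bp untreated and of 3281 bp post-caerulein and 1291 bp untreated, 32932 and 19711 bp from its nearest end. Gata6, a zinc finger factor of pancreas and gut, had regions of 5187 bp post-caerulein and 2041 bp untreated and of 3162 bp post-caerulein and 943 bp untreated. They lay 11508 and 92811 bp from its nearest end. The untreated scores at these 4 regions were 63.50 to 157.23. The digestive enzyme genes Cela1, Pnlip and Prss2 had pairs within the 2-fold limit alone. In the ductal list 1 of 18 genes, the osteopontin gene Spp1, had a widened region (3887 bp post-caerulein and 1896 bp untreated), and Cftr and Pdx1 had a narrowed one. The chloride channel gene Cftr had peaks of 1249 bp after caerulein and 6741 bp in untreated spheroids, and the homeodomain factor gene Pdx1 had 1700 bp post-caerulein and 3598 bp untreated. The Spp1, Cftr and Pdx1 regions lay 34153, 11139 and 33418 bp from the nearest end of the gene. Scores at Cftr were 81.14 post-caerulein and 1971.69 untreated, and at Pdx1 106.24 post-caerulein and 920.22 untreated. The ductal list's median ratio was 1.01.

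Metaplasia and progenitor genes were even, with 3 of 14 genes on each side and a median ratio of 1.01. Hmga2, a chromatin protein of fetal growth, had the largest gain, with peaks of 11045 bp post-caerulein and 4298 bp untreated inside the gene. Tff1, a gastric trefoil factor, had peaks of 3636 bp post-caerulein and 1713 bp untreated, and Jag1, a Notch ligand, had 3017 bp post-caerulein and 1202 bp untreated at a distance of 73846 bp. Cd44, Ly6a and Onecut2 had narrowed regions. Their peaks were 1380 bp after caerulein and 3368 bp in untreated spheroids at Cd44, 1769 bp post-caerulein and 3884 bp untreated at Ly6a, and 3829 bp post-caerulein and 8204 bp untreated at Onecut2.

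Of the growth factor lists, the EGFR and MAPK list had 4 of 29 genes with a widened region and 3 with a narrowed one. The receptor gene Egfr had 2 regions, of 6403 bp post-caerulein and 2537 bp untreated and of 3723 bp post-caerulein and 1751 bp untreated, and its ligand gene Tgfa had one of 3533 bp post-caerulein and 1258 bp untreated within the gene. The Egfr regions lay outside gene bodies, 31657 and 47545 bp from an end of Egfr. The ETS factor gene Ets2 had 2, of 6795 bp post-caerulein and 3349 bp untreated and of 6450 bp post-caerulein and 3142 bp untreated, at distances of 53035 and 91259 bp, and Spred2, an inhibitor of the pathway, had one of 4880 bp post-caerulein and 1844 bp untreated. The ligand gene Btc was among those with a narrowed region, with peaks of 1601 bp after caerulein and 3745 bp in untreated spheroids. The Btc region lay 93858 bp from the gene. The list's median ratio was 1.03. In the AP-1 and immediate early list 3 of 18 genes had a widened region and 0 a narrowed one: Bach1, a repressor of antioxidant genes (6358 bp post-caerulein and 2816 bp untreated), Ier3 (5842 bp post-caerulein and 2639 bp untreated) and Myc (3336 bp post-caerulein and 1445 bp untreated). The Ier3 and Myc regions lay outside gene bodies, 15646 and 20206 bp from the gene end. None of the 3 genes is an AP-1 subunit, and the list's median ratio was 1.05.

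Lif, a cytokine of the interleukin-6 family, had a region of 6148 bp post-caerulein and 2471 bp untreated, and Nfkbiz, a nuclear regulator of NF-kB, one of 4949 bp post-caerulein and 2456 bp untreated. Lif and Nfkbiz were 2 of 23 genes of the NF-kB and cytokine list, and Nfkb2 had a narrowed region. The Lif and Nfkbiz regions lay 25766 and 37569 bp from the gene end. In the interferon and STAT list 3 of 16 genes had a widened region: the receptor chain gene Ifngr1 (6091 bp post-caerulein and 2576 bp untreated), the feedback inhibitor gene Socs3 (5595 bp post-caerulein and 2146 bp untreated) and Irf2 (2825 bp post-caerulein and 1353 bp untreated). The interferon-induced Oasl2 had a narrowed one of 2558 bp after caerulein and 7138 bp in untreated spheroids. The Ifngr1, Socs3 and Irf2 regions lay 5338, 12927 and 27007 bp from the gene end. Median ratios were 1.07 in the NF-kB and cytokine list and 1.09 in the interferon and STAT list.

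In the Wnt and Hippo list 4 of 20 genes had a widened region: Tead1, a Hippo pathway transcription factor (4887 bp post-caerulein and 1384 bp untreated, 80476 bp from its end), the Wnt co-receptor gene Lrp6 (4041 bp post-caerulein and 1665 bp untreated, and 3336 bp post-caerulein and 1109 bp untreated), the ligand gene Wnt7b (3977 bp post-caerulein and 1656 bp untreated) and Vgll4, a repressor of TEAD factors (2973 bp post-caerulein and 1265 bp untreated). The Wnt7b region lay 57615 bp from the gene. Wwtr1, the gene of the Hippo effector TAZ, had 2 narrowed regions. The median ratio was 1.02. In the list of epithelial-mesenchymal transition and TGF-beta, 3 of 17 genes had a widened region, namely Fn1, the integrin gene Itgb6 (6271 bp post-caerulein and 2968 bp untreated) and the activin subunit gene Inhba (6082 bp post-caerulein and 2790 bp untreated). Tgfbr2, the TGF-beta receptor gene, had 3 narrowed regions, the widest with peaks of 2166 bp after caerulein and 9346 bp in untreated spheroids. Post-caerulein scores at the 3 were 54.79 to 134.72. The adhesion and actin list had 1 of 21 genes with a widened region and 3 with a narrowed one, among them Zyx and Myh9. The widened region, 53791 bp from the tropomyosin gene Tpm1, had peaks of 4964 bp post-caerulein and 2053 bp untreated. At the non-muscle myosin gene Myh9 the peaks were 2651 bp after caerulein and 52326 bp in untreated spheroids. The scores of that pair were 62.45 post-caerulein, near the lowest in the lists, and 315.05 untreated.

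The unfolded protein list had widened regions at Xbp1 (2729 bp post-caerulein and 1322 bp untreated) and Atf6 (2498 bp post-caerulein and 1212 bp untreated), both transcription factors of that response, of 18 genes. The Xbp1 and Atf6 regions lay 27337 and 4465 bp from the gene end. The cell cycle list had 1 of 23, by Ccnd1 (3761 bp post-caerulein and 1479 bp untreated, 89101 bp from the gene). The housekeeping list had 1 of 15, by Actb (3773 bp post-caerulein and 873 bp untreated, 16274 bp from the gene). Markers of other cell types had 1 gene each. These were Slc2a2 of 4 endocrine genes with a pair, Rgs5 of 7 mesenchymal genes (2566 bp post-caerulein and 1117 bp untreated), the macrophage receptor gene Csf1r of 8 immune genes (3206 bp post-caerulein and 912 bp untreated) and Erg of 8 endothelial genes. The untreated scores at Rgs5 and Csf1r were 50.09 and 50.31, at the low end of that list. Low untreated scores were not particular to these markers. They were 50.83 at Irf2, 55.22 at Tgfa, 57.23 at Vgll4, 62.03 at Xbp1 and 70.09 at Atf6. At Tff1, Ccnd1 and Tead1 they were 71.70, 72.50 and 75.27. Bach1, Ier3, Ets2, Socs3 and Nfkbiz were the 5 listed genes with a widened region whose 2 scores reached their list's median. Whether other cells contributed to these regions was not tested.

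**Figure D5:**
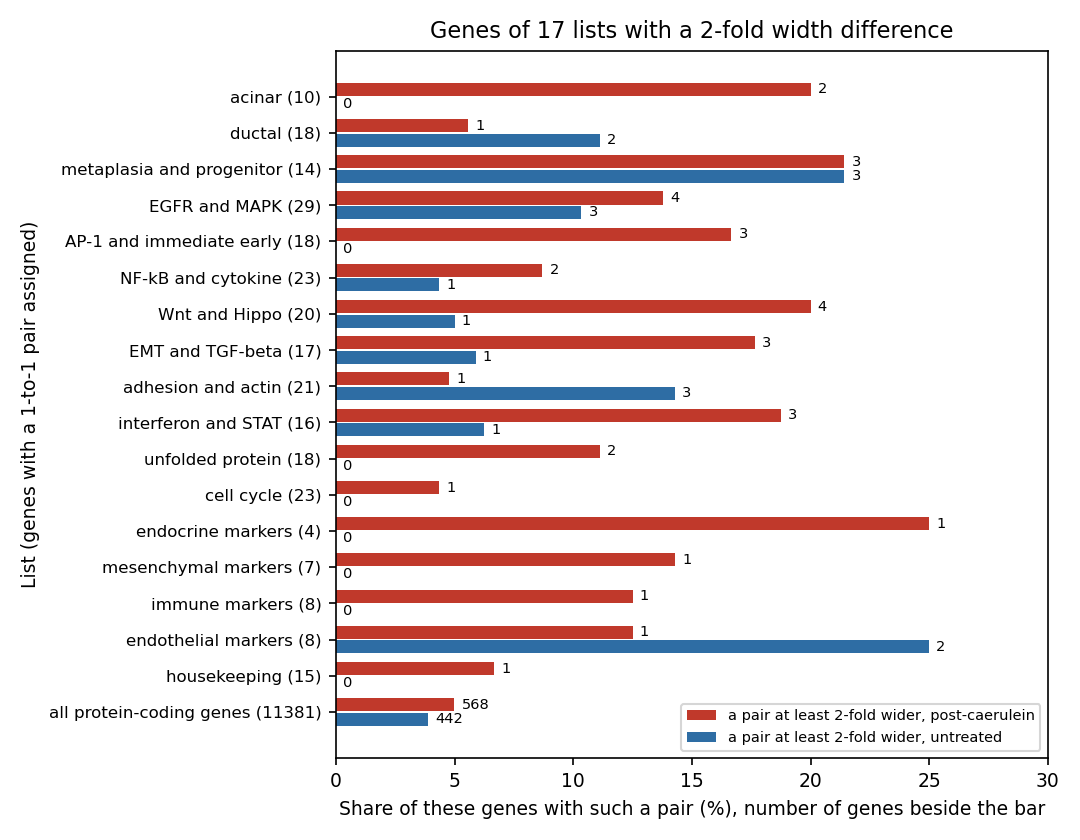
Share of the genes of each list that had a widened region (red) or a narrowed region (blue), in percent of the genes with a matched pair, whose number stands in parentheses; the number of genes with such a region is printed at each bar. Over all 17 lists, 34 of 269 genes have a widened region and 17 a narrowed one, against 4.99% and 3.88% of all protein-coding genes, which have fewer pairs each (2.14 against 3.23), and each bar of a list rests on 4 genes or fewer.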

How the data were processed

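H3K27ac peaks of 2 libraries of mouse pancreatic spheroids were used, 1 per condition. Tools named in the submitters' processing notes are Trimmomatic 0.38, Bowtie2 2.2.6, MACS 1.4 and SAMtools, with the builds GRCm38 and mm10, which name 1 assembly. Each deposited list gives the position, name and score of every peak (38793 post-caerulein and 37765 untreated peaks). The deposited score starts at 50, piles up at 3100 and has no stated definition, so it was ranked within its own list only. The sources used here do not give the control and options of the peak caller.

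Widths were end minus start. Pairs were computed in Python 3.11.15 (pandas 2.3.3, scipy 1.17.1), tested on simulated data and checked against bedtools 2.31.1, which gave the same 26529 pairs and 756 widened regions. Printed starts are counted from 1. Protein-coding genes (21887), start sites and promoters came from RefSeq for GRCm38.p6. The gene table gives no strand, exons or introns, so positions are relative to gene ends. No p-value was computed, since each condition has 1 library.

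The regions, gene lists and the rule for named genes were chosen with earlier results of these data known. The rule names the 10 largest gains, the 10 highest ratios among regions with both scores at or above their list's median, the 5 highest post-caerulein scores, 3 pairs on each side of the limit, the 10 largest gains that reach a gene end, the 10 genes with most regions and up to 4 genes per list. Predicted genes are not named, and nor are narrowed regions except at listed genes. Of 379 listed symbols, 377 are in the annotation, and some listed genes are not reported here.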

Additional observations from a re-analysis of the deposited data

How the results depend on the processing

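At ratio limits of 1.5 and 3 the widened regions numbered 2297 and 123 and the narrowed ones 1495 and 127, so their numbers were near equal at 3. With both scores at or above the list median there were 77 and 48. With that score limit the share of widened regions near a gene end was 29.9% and the share near a post-caerulein-only peak 53.2%. Merging peaks within 1 kb gave 938 widened regions, 554 with the same post-caerulein start, and 26.97% near a post-caerulein-only peak. A 50 kb window gave 70.9% of widened regions, against 43.7% of pairs within the limit. Shares of pairs within the limit are not given for the score limit or for merged peaks, so no contrast is read there. With a 2.5 kb window 2.25% of widened and 6.47% of narrowed regions reached a new gene end, against 4.50% and 4.44% without one, and with a limit of 75% the share gained on 1 side was 53.4%. Listed genes with a widened region numbered 9 with a 10 kb assignment limit, 9 at 3-fold and 5 with the score limit, against 34. The cause of these shifts was not tested. A 50% overlap, equal numbers of peaks, a minimum gain of 1 kb, and X and Y included gave counts of widened regions of 748 to 777. Of 57 named regions, 45 stayed matched after merging and 44 of these kept the 2-fold ratio, the exception being Aldh8a1 (1.25). Those that did not stay matched included both Fmnl2 regions, among them the highest ratio of all, and the Pde4dip regions except that starting at 97830464. The named regions at Tbcel, Prkacb, Poc1a, Tnfrsf1a and Mybphl, and a region each at Cadm1 and Farp1, were also no longer matched. No paired analysis was possible because there is a single H3K27ac library on each side, and leaving out a library was not possible either. Widths depend on depth, which is unknown, and 61.1% of the untreated peaks of widened regions had scores in the lowest 25% of their list.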

Other observations

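On the X chromosome, which was left out of the matched pairs above, 10 of 664 pairs were at least 2-fold wider after caerulein (1.51%, 0.72 to 2.75) and 16 were at least 2-fold wider in untreated spheroids. The Y chromosome had 4 pairs and 0 of either kind.

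Widened regions covered 2 microRNA genes. Mir7657 (chromosome 3, 122541625 to 122541681) lay in the gained part of a region with peaks of 6609 bp post-caerulein and 2119 bp untreated, whose nearest gene end is that of Fnbp1l. Mir3097 (chromosome 5, 35021049 to 35021115) lay under both peaks of a region by Rgs12, of 7838 bp post-caerulein and 2713 bp untreated. Their mature 5p strands are given from RefSeq with the seed, bases 2 to 8, in capitals.
mmu-miR-7657-5p: aAUAGUUGgauaguuagguaa
mmu-miR-3097-5p: cACAGGUGggaagugugugucca

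Nr1h4, the gene of the bile acid receptor FXR, singled out after its values were seen, had 2 widened regions within the gene, with peaks of 7397 bp post-caerulein and 2909 bp untreated and of 3478 bp post-caerulein and 1321 bp untreated, and the first held a listed start site under both peaks. All 3 pairs assigned to Nr1h4 were wider after caerulein, with ratios of 1.91 to 2.63.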
